A study of Mus musculus with 16 samples.

Results

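The subject is the response of wild-type J1 mouse embryonic stem cells to 2i culture, measured on 1-colour expression arrays. The 7 arrays whose labels name J1 cells were taken from the 16 arrays of the series, 3 of them from cells in 2i (J1-2i) and 4 from cells in serum (J1-serum). J1 is a line with all DNA methyltransferases intact. The serum medium was DMEM with 15% fetal calf serum and LIF at 500 U/ml, and these cells grew on SNLP feeder fibroblasts inactivated with mitomycin C. The 2i cells had spent 2 weeks without serum or feeders, on gelatin, in N2B27 with the MEK inhibitor PD0325901 at 1 µM, the GSK3 inhibitor CHIR99021 at 3 µM and LIF at 1000 U/ml. LIF was present on both sides. Medium, inhibitors, LIF dose and feeders changed together, so their parts in any difference cannot be told apart. The remaining 9 arrays were used for comparison. They came from TKO cells, which lack Dnmt1, Dnmt3a and Dnmt3b (2 arrays in serum, 3 in 2i), and from 3B3l cells, which lack Dnmt3a and Dnmt3b and constitutively express exogenous Dnmt3b and Dnmt3l (2 and 2 arrays), all grown without feeders in either medium.

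Embryonic stem cells in serum receive FGF signals through MEK and ERK that move them towards differentiation, and a part of such cultures switches naive genes off or primitive endoderm genes on. PD0325901 blocks MEK, so that ERK is not activated. CHIR99021 blocks GSK3, the kinase that marks beta-catenin for destruction and so holds back Wnt target genes. LIF acts through Stat3, and cells given all of these are held in a naive state that resembles the early epiblast, with low DNA methylation.

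Levels below are log2 values of a probe's signal relative to the 75th percentile of its array, so that 0 is that percentile and a difference of 1 is a 2-fold difference. They compare arrays for the same probe and not one gene with another. A gene was called when its limma adjusted p was at most 0.05 and its change at least 2-fold. Pairs of J1-serum arrays correlated at 0.968 to 0.987, pairs of J1-2i arrays at 0.987 to 0.989, and pairs across the media at 0.890 to 0.916. The array of J1-serum replicate 1 stood apart. It was the only J1 array on the third slide, its probe values deviated from the group mean by a root mean square of 0.418 against 0.288 to 0.311 for the other 3, and it had 1487 saturated spots against 470 to 1065. Without it 1370 genes were called higher in 2i and 1721 lower, in place of 1407 and 1759. Within slide 1 alone, with 2 arrays of each medium, the counts were 1431 and 1737, and with slide as a block 1388 and 1732. Dnmt3a was well above background on every J1 array and on none of the TKO and 3B3l arrays, and the level of Dnmt3b differed from J1-serum by -3.31 in TKO-serum and, with the exogenous copy, 2.57 in 3B3l-serum. Embryonic stem cell markers were measured above background on every J1 array, with a summed linear level of 176 to 231 in serum and 253 to 316 in 2i. The labels do not say that the arrays came from separate cultures, so p-values describe the spread between arrays.

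In J1 cells 13903 genes had a probe that could be tested, and 1407 of them (10.1%) were called higher in 2i and 1759 (12.7%) lower. The serum and 2i arrays did not overlap for 63.0% of the genes tested, and the median change over all genes was 0.05 on the log2 scale. Of the 10992 genes measured above background on all 7 arrays, 922 were called higher and 762 lower. For 278 genes the probe was above background in 2i but on no serum array, and for 501 the reverse held. Only a lower bound of the fold is given for these, as "at least", with the dim side set to the faintest signal above background or to its own value if that was higher.

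**Figure D1:**
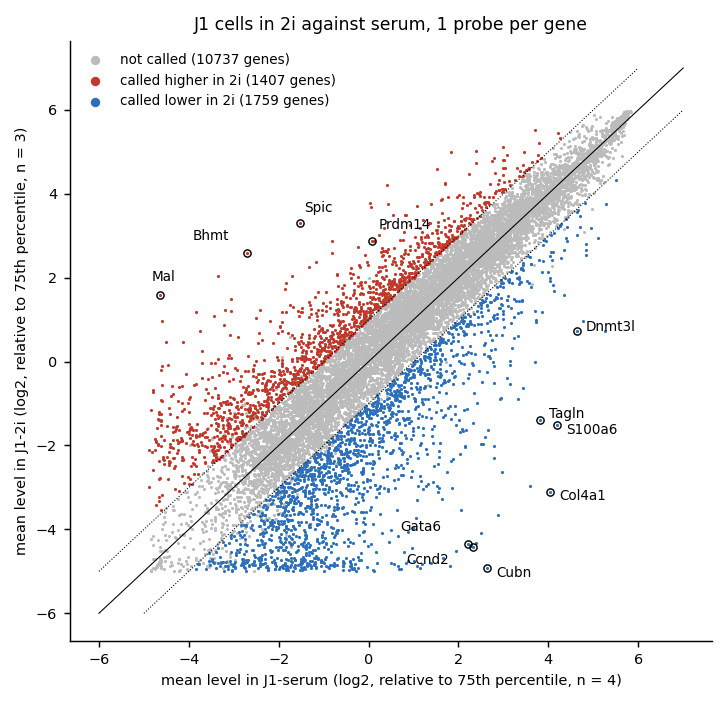
Mean level of each of the 13903 genes in J1-serum (x axis, 4 arrays) against J1-2i (y axis, 3 arrays), both as log2 relative to the array's 75th percentile. Red and blue points are the 1407 genes called higher and the 1759 called lower in 2i, the solid line marks equal levels and the dotted lines a 2-fold change, and the low edge near -5 holds probes at background.

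Among genes measured on every array of both media, Spic, which encodes an Ets family transcription factor, rose most. Its level was -1.80, -1.56, -1.40 and -1.35 in serum and 3.38, 3.28 and 3.29 in 2i. No serum array came near the 2i arrays, which were 28.8-fold higher on average (log2 change 4.85, SE 0.14, adjusted p = 8.2e-11). The next in order were Crxos, a homeobox gene (3.81 ± 0.16, adjusted p = 1.1e-09), Ildr1, a receptor of tricellular junctions (3.74 ± 0.15, adjusted p = 9.6e-10), and Mcf2, an exchange factor for small GTPases (3.74 ± 0.10, adjusted p = 2.7e-11), each given as log2 change ± SE. Qpct, which encodes glutaminyl cyclase, rose by 3.68, and the transcription factors Mitf and Meis2 rose by 3.62 and 3.58. Plagl1, an imprinted zinc finger gene, rose from the range 1.60 to 2.04 in serum to 4.97 to 5.01 in 2i. A second probe of Plagl1 was called lower, at -1.14, so the probes of this gene disagreed. Il6ra, the receptor chain for interleukin-6, rose by 3.01, Pla1a, a phospholipase, by 3.32, and Jakmip1, which binds Janus kinases and microtubules, by 3.41. The remaining genes chosen by this rule were Zfp607b, Slfn10-ps, Gm13580 and Chac1, with changes of 3.71, 3.59, 3.55 and 3.06.

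The same rule was applied in the opposite direction. S100a6, a calcium-binding protein, was at 4.23, 4.13, 4.38 and 4.02 in serum and -1.40, -1.48 and -1.69 in 2i. All serum arrays lay far above all 2i arrays, by 52.5-fold on average (log2 change -5.71, SE 0.12, adjusted p = 9.2e-12). Tagln, the actin-binding protein transgelin, fell by 37.0-fold (log2 change -5.21, SE 0.21, adjusted p = 7.7e-10). The related S100a4 changed by -4.79, the collagen chains Col1a2 and Col18a1 by -5.10 and -3.81, the laminin chain Lamb1 by -4.55 and the matrix protein fibulin Fbln2 by -4.40. Cldn6, a tight junction claudin, changed by -4.29, and its serum levels were 3.40, 2.38, 2.43 and 2.43, so that replicate 1 was the high one. Pdpn, a membrane mucin, the membrane proteins Tspan7 and Emp3, and the stress gene Gadd45g changed by -4.06, -3.85, -3.81 and -3.80. Ccn1, Id2 and Dnmt3l, the others of these 15, are described with their groups.

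Feedback inhibitors and early response genes of ERK signalling were lower in 2i. Of 19 such genes, 12 were called lower and none higher, against 12.7% and 10.1% of all genes, and the list's median change was -1.74, or -1.72 with 5 genes at background in a medium set at the lower bound of their change, against 0.05 over all genes. Spry4, which encodes a Sprouty inhibitor of the pathway, was at -0.88, -0.28, -0.16 and -0.44 in serum and -4.64, -5.05 and -5.21 in 2i. Its serum arrays did not overlap with the 2i arrays, on none of which the probe was well above background, so Spry4 was at least 7.86-fold lower (adjusted p = 1.6e-07). Dusp4, a phosphatase that inactivates ERK in the nucleus, was at least 16.7-fold lower (1.14, 1.21, 1.16 and 0.88 in serum), and Phlda1, an early response gene, was called lower from 0.89 to 1.95 in serum to a signal above background on no 2i array (adjusted p = 6.5e-07 and 9.8e-07). Dusp6, the cytoplasmic ERK phosphatase, was at 2.39, 2.66, 2.59 and 2.74 in serum and 0.50, 0.35 and 0.48 in 2i (log2 change -2.15, SE 0.11, adjusted p = 6.1e-09). It was measured on every array, and its serum levels varied by far less than the gap to 2i.

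Ier3, an early response gene that acts on cell survival, was at 3.07, 3.14, 3.26 and 3.13 in serum and -0.60, -0.44 and -0.55 in 2i and fell by 12.8-fold (log2 change -3.68, SE 0.12, adjusted p = 1.9e-10). The early transcription factor Egr1 fell by 7.41-fold (log2 change -2.89, SE 0.32, adjusted p = 8.6e-06), from the range 1.51 to 2.04 in serum to -1.47 to -0.85 in 2i. Fos, a transcription factor of the early response, fell from the range -0.66 to -0.40 in serum to -2.69 to -2.37 in 2i. Myc changed by -1.74, and the early factor Fosl1 and the phosphatase gene Dusp5 were at least 3.36- and 3.29-fold lower. Etv4, an Ets factor downstream of FGF, and Spry1 were called lower at -1.27 and -1.24. The 7 members that were not called included close relatives of these genes. Etv5, the neighbour of Etv4 in the family, was at 4.71 to 4.79 in serum and 5.13 to 5.36 in 2i, which is a change of 0.48 in the opposite direction. Spry2 changed by 0.15, Dusp1 by -0.08, Ier2 by 0.68, Spred1 and Spred2, further inhibitors of the pathway, by -0.28 and 0.46 (the latter above background on 3 of 4 serum arrays), and Ccnd1, the cyclin that ERK signalling raises in many cell types, by 0.76.

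Naive pluripotency factors were higher in 2i. Of the list, 11 of 22 were called higher and none lower, and the list's median was 0.91. Prdm14, a repressor of FGF receptor signalling and of the de novo methyltransferases, was at 0.01, 0.17, 0.00 and 0.15 in serum and 2.89, 2.77 and 2.95 in 2i. The groups were far apart, and the 2i arrays were 6.91-fold higher (log2 change 2.79, SE 0.10, adjusted p = 2.7e-10). Tfcp2l1, a transcription factor downstream of LIF, was at 1.45, 1.79, 1.72 and 1.82 in serum and 4.31, 4.30 and 4.16 in 2i (log2 change 2.56, SE 0.13, adjusted p = 8.4e-09). Tbx3, a T-box factor, rose from the range 2.31 to 2.51 in serum to 4.69 to 4.80 in 2i (log2 change 2.35, SE 0.10, adjusted p = 1.0e-09). Nr5a2, an orphan nuclear receptor that activates Pou5f1, rose by 1.94, and Tcl1, a cofactor of Akt, by 1.83. The Krüppel-like factors Klf5 and Klf4 rose by 1.58 and 1.15, the nuclear receptors Nr0b1 and Esrrb by 1.56 and 1.07, Nanog by 1.40 and Tdh, the threonine dehydrogenase of mouse stem cells, by 1.23.

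Of the core factors, Sox2 was at 4.02 to 4.11 in serum and 4.54 to 4.86 in 2i, a change of 0.64 that did not reach 2-fold. Klf2 changed by 0.75. Pou5f1, Zfp42 and Dppa5a gave changes of 0.16, 0.39 and 0.22, and their probes were saturated on J1 arrays, so a rise above that limit could not be seen. Gbx2 (-0.31), Dppa4 (-0.82) and Dppa3 (-0.84), a maternal factor that protects imprints, were the members with values below 0, and none was called.

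Genes of the formative and primed states did not move as 1 group. Of 25 genes, 12 were called lower and 3 higher, the latter a share near the 10.1% of all genes. Pou3f1, a POU factor of the primed epiblast, was at 0.64, 0.37, 0.11 and 0.44 in serum and -2.20, -1.96 and -2.21 in 2i and fell by 5.72-fold (log2 change -2.52, SE 0.18, adjusted p = 1.1e-07). Sox11, Sox4 and Sox3, which are expressed in epiblast and neural cells, changed by -3.18, -2.30 and -1.87, with Sox11 above background on 1 and Sox3 on 2 of the 3 2i arrays. Enpp2, the enzyme autotaxin, was at least 8.41-fold lower. Tcf15, a bHLH factor that primes cells for differentiation, fell by 4.16-fold, Lin28a, an RNA-binding protein, by 3.55-fold, and Utf1, a chromatin factor, by 2.88-fold.

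In contrast, Otx2, which directs the exit from the naive state, was at 3.70, 3.67, 3.84 and 3.75 in serum and 3.63, 3.63 and 3.69 in 2i. The groups overlapped (log2 change -0.09, SE 0.10, adjusted p = 0.53). Zic2 was at 1.27, 1.01, 1.25 and 1.19 in serum and 3.12, 2.91 and 3.27 in 2i and rose (log2 change 1.92, SE 0.10, adjusted p = 8.5e-09). Foxd3, a forkhead factor of the early epiblast, was at least 5.51-fold higher in 2i (adjusted p = 1.9e-07), from a serum signal that was not well above background on any array. Fst, the activin antagonist follistatin, rose by 1.04. Fgf5, the usual marker of the primed state, was at background in both media, at -5.11 to -4.60 and -5.23 to -4.69.

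**Figure D2:**
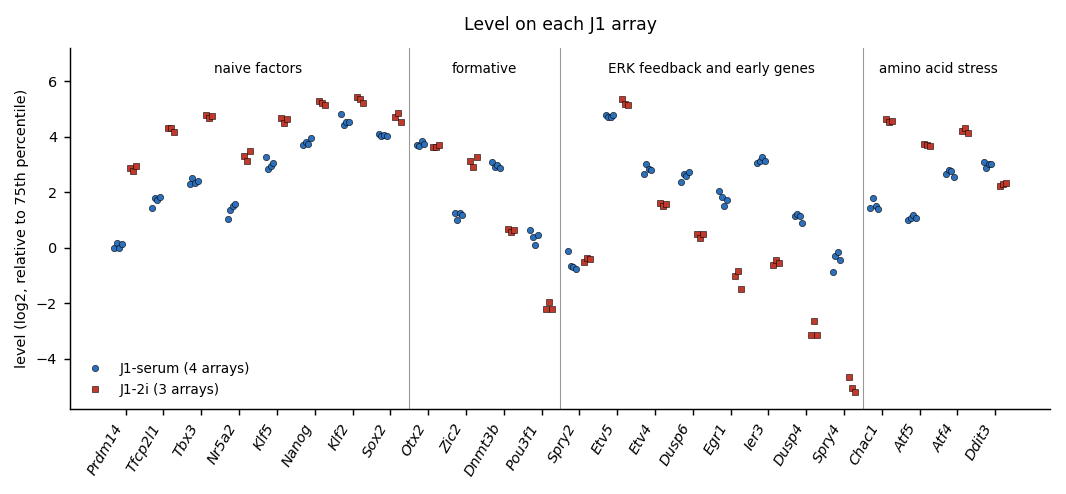
Level of 24 genes on each of the 4 J1-serum arrays (blue circles) and 3 J1-2i arrays (red squares), as log2 relative to the array's 75th percentile. Spry4 and Dusp4 drop to the background range in 2i, the naive factors from Prdm14 to Nanog rise, and Otx2 and Spry2 change by -0.09 and 0.15.

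Regulators of DNA methylation changed in both directions, 8 of 23 lower and 5 higher. Dnmt3l, the cofactor of de novo methylation, was at 4.98, 4.43, 4.58 and 4.55 in serum and 0.73, 0.80 and 0.69 in 2i. It was 14.9-fold lower in 2i, with no overlap (log2 change -3.90, SE 0.13, adjusted p = 1.5e-10). The de novo enzyme Dnmt3b was at 3.08, 2.91, 2.98 and 2.88 in serum and 0.68, 0.56 and 0.65 in 2i and fell by 5.05-fold (log2 change -2.34, SE 0.10, adjusted p = 2.0e-09). Dnmt3a fell less, by 2.69-fold (log2 change -1.43, SE 0.13, adjusted p = 1.5e-06). The maintenance enzyme Dnmt1 changed by 0.57 and was not called. Uhrf1, which brings Dnmt1 to newly copied DNA, rose by 1.18, whereas its relative Uhrf2 changed by -1.11. Tet2, an enzyme that oxidises methylcytosine, rose by 1.51, while Tet1 (0.50) and Tet3 (-0.07) were not called. Apobec2, of the cytidine deaminase family, was at least 5.05-fold higher. The stress genes Gadd45g, Gadd45a and Gadd45b fell by 14.0-, 3.05- and 2.25-fold.

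Targets of Wnt and beta-catenin were split, with 5 of 17 called higher and 6 lower. Axin2, the feedback inhibitor used as the standard readout of the pathway, was at -4.33, -3.79, -3.42 and -4.46 in serum and -1.04, -1.37 and -1.16 in 2i. It was above background only in 2i, and was at least 4.25-fold higher there (adjusted p = 1.7e-05). Cdx1, a caudal homeobox gene, was at -1.49, -1.52, -1.82 and -1.88 in serum and 1.34, 1.19 and 1.36 in 2i and rose by 7.84-fold (log2 change 2.97, SE 0.20, adjusted p = 6.6e-08). The zinc finger genes Sp8 and Sp5 rose, Sp8 by at least 3.95-fold and Sp5 by 3.11-fold, and the repressor Tcf7l1 was called at 1.01. Ccnd2, a D-type cyclin, was at 2.18, 2.30, 2.48 and 2.36 in serum and -4.48, -4.41 and -4.38 in 2i. It fell from a clear signal to background, by at least 53.7-fold (adjusted p = 1.5e-12). Dkk1, a secreted Wnt antagonist, was at least 7.23-fold lower, the inhibitor Nkd1 at least 6.03-fold, the transcription factor Lef1 at least 1.68-fold and the homeobox gene Cdx2 at least 1.59-fold. Ascl2, a bHLH factor, fell by 2.60-fold. The T gene (Brachyury) stayed at background on all 7 arrays.

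In the Nodal pathway 4 of 16 genes were called higher and 2 lower (12.5%, near the 12.7% of all genes). Lefty2, a Nodal antagonist, was at 2.79, 2.70, 2.90 and 2.78 in serum and 5.01, 4.81 and 4.78 in 2i (log2 change 2.07, SE 0.09, adjusted p = 1.2e-09). Its paralog Lefty1 changed by -0.57 and was not called. Pcsk6, a convertase that activates Nodal, rose by 2.32, the ligand Gdf3 by 1.35 and the inhibitor Smad7 by 1.16, while Nodal itself changed by 0.74. Skil, a Smad repressor, was among those called lower and changed by -1.03. Of 13 genes of the BMP pathway 7 were lower and 2 higher. Id1, an inhibitor of bHLH factors that BMP in serum induces, was at 2.50, 2.26, 2.24 and 2.37 in serum and -0.50, -0.70 and -1.05 in 2i and fell by 8.52-fold (log2 change -3.09, SE 0.13, adjusted p = 1.3e-09). Id2 fell by 17.7-fold and Id3 by 2.10-fold, whereas Id4 rose by 5.29-fold. Dusp9, the phosphatase through which BMP restrains ERK, fell by 5.31-fold, and Grem1, a BMP antagonist, was at least 3.93-fold lower. In the LIF pathway 3 of 14 genes were higher, the Stat3 targets Bcl3 (3.16-fold) and Socs2 (2.29-fold) and the receptor chain Il6st (2.01-fold), and 2 were lower, Cish (adjusted p = 5.8e-06) and Junb (a change of -1.65). The 14.3% lower was near the 12.7% of all genes, the share higher was 21.4% against 10.1%, and the list's median was 0.0061. Socs3, the usual feedback readout of Stat3, was at -0.91 and was not called.

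Genes that cells raise when amino acids are short were higher in 2i, 12 of 23 with none lower, and the list's median was 1.02. Chac1, which degrades glutathione, was at 1.41 to 1.78 in serum and 4.54 to 4.64 in 2i. All 2i arrays lay above all serum arrays, by 8.34-fold (log2 change 3.06, SE 0.16, adjusted p = 6.1e-09). The transcription factors Atf5 and Atf4 rose by 6.16-fold and 2.89-fold (2.62 ± 0.09, adjusted p = 1.5e-10 and 1.53 ± 0.19, adjusted p = 2.1e-05). Slc7a3, a carrier of arginine and lysine, was at 2.02, 2.25, 2.46 and 2.20 in serum and 4.56, 4.52 and 4.35 in 2i (log2 change 2.24, SE 0.14, adjusted p = 3.2e-08), and the carrier Slc7a5 rose by 1.74, while its other probe changed by -0.51 and was not called. Stc2, a secreted glycoprotein, rose by 2.46, the pseudokinase Trib3 by 2.16, the stress factor Nupr1 by 2.11 and the mitochondrial enzymes Pck2, Aldh18a1 and Mthfd2 by 1.95, 1.54 and 1.02. Pck2 was above background on 1 of 4 serum arrays. The lipoprotein receptor Vldlr was the other gene called. Asns, asparagine synthetase and a standard target of Atf4, changed by 0.87 and stayed under 2-fold, and Ddit3, which encodes the death-linked factor CHOP, changed by -0.71. For Sesn2, an inhibitor of mTORC1 signalling, the serum arrays did not form 1 group, at 2.31, 5.09, 4.89 and 2.54, and no call was made.

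Enzymes of the betaine and methionine cycle were called higher in 6 of 18 cases and lower in 1. Bhmt, which passes a methyl group from betaine to homocysteine, was at -2.55, -2.19, -3.01 and -3.08 in serum and 2.52, 2.64 and 2.63 in 2i. The 2i arrays were 39.6-fold higher (log2 change 5.31, SE 0.19, adjusted p = 2.9e-10), and the serum signal was well above background on 1 array only. Its neighbour gene Bhmt2, above background on 2 of 4 serum arrays, rose by 8.63-fold and Dmgdh, which acts on the product dimethylglycine, by 5.39 on the log2 scale. The serum levels of Dmgdh were 0.33, -4.71, -4.61 and -4.40, so replicate 1 was alone above background. Without that array no serum signal was above background, and the change would have only a lower bound. Cth, which makes cysteine from cystathionine, rose by 2.24 and Nnmt, the nicotinamide methyltransferase, by at least 2.02-fold, while Gnmt, which consumes S-adenosylmethionine, changed by -1.29. Of 24 genes of cholesterol synthesis, Tm7sf2 (1.11), a sterol reductase, was the only one called. In fatty acid synthesis Scd1, Fasn and Fads1 were called at 1.08, 1.06 and 1.04, the regulator Srebf1 was at least 1.75-fold higher, and Elovl1 fell by 2.20-fold. Of 30 hypoxia and glycolysis genes 8 were lower, among them Adm (adrenomedullin, -3.10, above background on 2 of 3 2i arrays), the collagen hydroxylases P4ha2 (-2.49) and P4ha1 (-1.71) and the oxygen sensor Egln3 (-2.27), and 1 was higher, the phosphofructokinase Pfkp (2.14-fold).

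Germline genes were chosen because many of them are silenced by promoter methylation in stem cells. Of 30 genes tested, 7 were called higher and 15 lower. Fkbp6, a cochaperone of the piRNA pathway, was at -0.43, -0.23, -0.38 and -0.32 in serum and 2.08, 2.15 and 2.02 in 2i and rose by 5.37-fold (log2 change 2.43, SE 0.13, adjusted p = 1.1e-08). Dazl, an RNA-binding protein of germ cells, was at -0.06, 0.56, 0.55 and 0.62 in serum and 2.53, 2.39 and 2.88 in 2i (log2 change 2.19, SE 0.19, adjusted p = 6.5e-07). Rpl10l, a testis ribosomal protein, rose by 1.80, Hormad1, a protein of the meiotic chromosome axis, by 1.41, and Stk31, a testis kinase, by 1.19. Tuba3a (1.00) was called too, and Asz1 was called although its probe was well above background on no J1 array, so no fold is given. In the opposite direction Mael, a piRNA factor, was at 3.23, 2.96, 3.19 and 3.24 in serum and 0.00, -0.11 and 0.13 in 2i and fell by 8.87-fold (log2 change -3.15, SE 0.13, adjusted p = 1.2e-09). Sycp3, which builds the axis of meiotic chromosomes, was at 2.98, 2.96, 2.96 and 3.02 in serum and 0.85, 1.06 and 1.11 in 2i and fell by 3.93-fold (log2 change -1.97, SE 0.14, adjusted p = 1.3e-07). Syce3, of the synaptonemal complex, changed by -3.95 on the log2 scale, with 2 of 3 2i arrays above background, while the germ cell helicase Ddx4 fell by 4.21-fold, the meiotic cohesin subunit Smc1b by 4.71-fold and Stra8, the gate to meiosis, by 3.33-fold. Tex101, a surface protein of germ cells, was at least 5.57-fold lower, and the Piwi protein Piwil2 at least 4.95-fold.

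The hexamer CACGTG, an E-box read alike on both strands, was searched in the RefSeq promoter windows of build GRCm38.p6, from 250 bases before to 30 bases after the start of each gene. It was present in 11 of the 28 germline genes with a window (39.3%), against 10.8% of the tested genes and 7.71% of all genes with a window. Genes that rose and genes that fell both held it: 3 of the 7 called higher, 7 of the 14 called lower and 1 of the 7 not called. The windows of Fkbp6 and Hormad1, which rose, and of Mael, Sycp3 and Ddx4, which fell, are shown because they share the hexamer and changed in opposite directions. Capitals mark CACGTG, and the rest is in lower case, 5′ to 3′ along each gene. The windows lie at chr5:135349884-135350163 on the minus strand, chr3:95559427-95559706 on the plus strand, chr1:166238715-166238994 on the minus strand, chr10:88459337-88459616 on the plus strand and chr13:112652281-112652560 on the minus strand, in that order.
Fkbp6: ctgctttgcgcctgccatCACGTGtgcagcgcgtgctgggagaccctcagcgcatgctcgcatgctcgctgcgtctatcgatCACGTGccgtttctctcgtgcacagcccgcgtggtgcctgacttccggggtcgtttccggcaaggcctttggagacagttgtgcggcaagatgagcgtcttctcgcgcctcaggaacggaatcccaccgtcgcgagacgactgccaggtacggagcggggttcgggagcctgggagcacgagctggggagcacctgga
Hormad1: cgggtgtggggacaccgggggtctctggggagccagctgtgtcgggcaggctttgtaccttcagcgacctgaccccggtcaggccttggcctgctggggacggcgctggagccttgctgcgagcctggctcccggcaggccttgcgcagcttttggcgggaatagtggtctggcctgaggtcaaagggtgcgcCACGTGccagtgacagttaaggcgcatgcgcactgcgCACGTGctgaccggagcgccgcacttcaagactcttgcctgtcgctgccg
Mael: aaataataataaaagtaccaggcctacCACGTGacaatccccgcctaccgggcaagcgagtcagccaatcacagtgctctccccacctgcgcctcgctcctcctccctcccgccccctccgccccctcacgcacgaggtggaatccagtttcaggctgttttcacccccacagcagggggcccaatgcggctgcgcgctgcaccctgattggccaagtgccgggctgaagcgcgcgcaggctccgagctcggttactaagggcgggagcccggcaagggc
Sycp3: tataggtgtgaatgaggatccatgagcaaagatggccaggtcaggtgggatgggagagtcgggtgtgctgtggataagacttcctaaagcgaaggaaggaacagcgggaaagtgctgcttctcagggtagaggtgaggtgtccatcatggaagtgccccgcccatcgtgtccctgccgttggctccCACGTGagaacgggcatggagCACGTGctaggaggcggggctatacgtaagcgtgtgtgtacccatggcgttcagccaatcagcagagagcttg
Ddx4: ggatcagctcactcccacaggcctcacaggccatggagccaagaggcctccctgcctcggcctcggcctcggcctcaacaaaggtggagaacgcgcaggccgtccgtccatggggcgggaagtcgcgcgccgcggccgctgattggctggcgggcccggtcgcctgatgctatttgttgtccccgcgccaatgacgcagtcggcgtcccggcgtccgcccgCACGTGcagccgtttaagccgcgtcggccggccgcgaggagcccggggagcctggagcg
The match is of letters alone. Methylation was not measured on these arrays.

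Genes of the transient state that resembles the embryo at the 2-cell stage were lower in 2i, 8 of 13, with 1 higher, and the median was -1.94. Zscan4f, a zinc finger gene that marks this state, was at 3.95, 3.93, 4.25 and 4.04 in serum and 1.93, 1.82 and 2.04 in 2i and fell by 4.32-fold (log2 change -2.11, SE 0.13, adjusted p = 4.0e-08). The probes of Zscan4a, Zscan4b and Zscan4c gave -1.94, -2.22 and -2.11. These are near-identical copies, so a probe may read several of them. Tcstv1, a further gene of the state, was at least 5.56-fold lower, Tcstv3 changed by -2.28 with 2 of 3 2i arrays above background, Tmem92 by -1.55, and Calcoco2, an autophagy receptor, rose by 1.84. The summed linear level of 5 markers of the state was 21.9 to 36.8 on the serum arrays and 6.10 to 8.30 on the 2i arrays.

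The lowest median of the 31 lists was that of primitive endoderm genes, the genes of the extraembryonic lineage that forms the yolk sac. Of 19 genes, 16 were called lower and 1 higher, and the median was -4.39, or -3.59 with the 11 genes at background in a medium set at their bound. Genes above background throughout J1-serum passed the filter whatever their signal in 2i, so the count and the median were set in part by the filter. With signal required on all 16 arrays, 4 genes were called lower. Gata6, the factor that sets up the lineage, was at 2.22, 2.10, 2.24 and 2.28 in serum and -4.46, -4.38 and -4.20 in 2i. It was well above background on every serum array and on no 2i array, and was at least 49.4-fold lower (adjusted p = 1.5e-07). Gata4 was at 0.97, 0.42, 0.43 and 0.54 in serum and -3.20, -3.01 and -2.81 in 2i and at least 12.1-fold lower. The SRY-related factors Sox17 and Sox7 fell, Sox17 from the range 0.95 to 1.42 in serum to -3.16 to -2.39 in 2i, where 1 of 3 arrays was above background (log2 change -4.01, SE 0.21, adjusted p = 7.9e-09), and Sox7 by at least 17.2-fold. The growth factor receptor Pdgfra, the forkhead factor Foxa2 and the adaptor Dab2 were at least 9.52-, 8.15- and 11.9-fold lower. In a bulk sample fewer endoderm-like cells and less RNA per cell cannot be told apart.

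Basement membrane and uptake genes, which this lineage makes in quantity, were on the same list. Cubn, the endocytic receptor cubilin, was at 2.61, 2.44, 2.76 and 2.77 in serum and -4.61, -5.03 and -5.16 in 2i, at least 66.7-fold lower (adjusted p = 6.5e-12), and its partner Amn at least 29.8-fold lower. The type IV collagen chain Col4a1 was at 3.83 to 4.28 in serum and -3.42 to -2.89 in 2i. That was the highest lower bound of any gene, at least 135-fold (adjusted p = 1.5e-11), and its partner chain Col4a2 was at least 73.5-fold lower. The laminin chains Lamb1 and Lama1 fell by 23.4-fold and 3.42-fold, whereas Lamc1 was at 4.87, 3.57, 3.52 and 3.71 in serum, high on replicate 1, and was not called (-0.60). Srgn, a proteoglycan, and Sparc, a matrix glycoprotein, fell by 14.0-fold and 3.05-fold. Hnf4a, of the mature visceral endoderm, changed by -0.34 and was not called.

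The 8 markers of this lineage had a summed linear level of 19.2 to 22.3 on the J1-serum arrays, with all 8 above background on every array, and of 0.535 to 0.609 on the J1-2i arrays, where 7 of the 8 were above background on none. In the feeder-free serum cultures the level was 2.35 to 2.88 (TKO) and 2.21 to 2.28 (3B3l). The J1-serum sums lay above those of all other serum arrays. Of all genes, 8.76% were called lower and 7.81% higher in TKO-serum than in J1-serum, and 9.48% and 9.94% in 3B3l-serum. Against J1-serum, the log2 level in TKO-serum differed by -3.22 for Gata6 and -3.43 for Cubn (adjusted p = 3.8e-04 and 3.1e-08), and that in 3B3l-serum, where 1 of 2 arrays had Cubn above background, by -3.64 and -4.83 (adjusted p = 1.2e-04 and 2.3e-09). These comparisons use the same J1-serum arrays as the J1 response. Genotype and feeders differ together between the serum cultures and cannot be told apart. Both 3B3l-serum arrays were also on slide 3, scanned on the second day, with 1 of the 4 J1-serum arrays. With slide as a block 1201 genes, in place of 1318, were lower in 3B3l-serum, and the difference was -3.65 for Gata6 and -4.79 for Cubn.

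**Figure D3:**
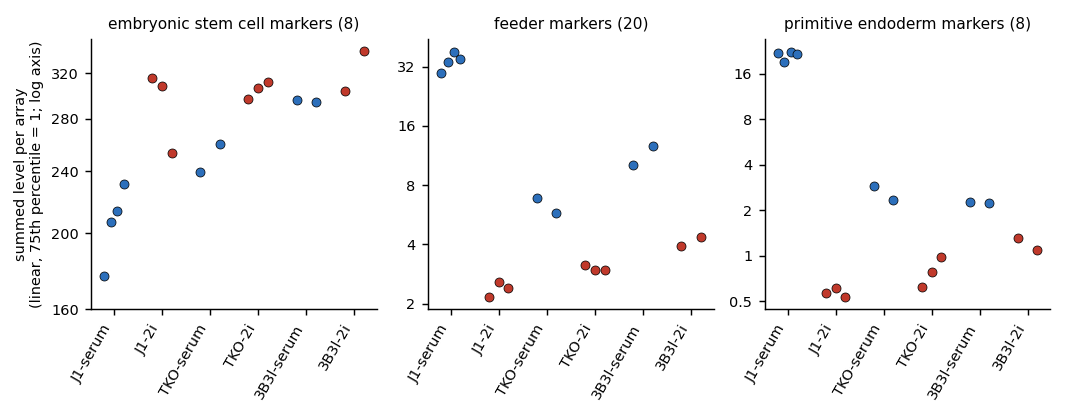
Summed linear level of the marker genes of embryonic stem cells, feeder fibroblasts and primitive endoderm on each array of the 6 groups (75th percentile of the array = 1, log axis, serum in blue, 2i in red). The endoderm and fibroblast sums of the 4 J1-serum arrays lie above those of all other arrays, at 19.2 to 22.3 and 29.7 to 38.2. The stem cell sums include probes saturated on J1 arrays (Pou5f1, Zfp42 and Dppa5a), which cap them, so their range is no measure of stability.

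Genes of fibroblasts were measured as a possible sign of feeder cells, on which J1 cells were grown in serum only. Of the 20 markers 13 could be tested, and 12 of them were called lower in 2i and none higher (median -3.12, or -2.38 with 5 genes at their bound). A marker above background throughout J1-serum passed the filter whatever its signal in J1-2i, where 12 of the 20 were above background on no array. The count lower was thus set in part by the filter, and was 1 with signal required on all 16 arrays. The summed level of the 20 was 29.7 to 38.2 in J1-serum, 2.16 to 2.59 in J1-2i, 5.78 to 6.88 in TKO-serum and 10.2 to 12.6 in 3B3l-serum. In J1-serum 12 of the 20 were above background on every array, while Col5a2, Col6a2, Lum, Prrx1, Fbn1 and Fap, markers of fibroblasts as well, were on none. Col1a1, the main chain of type I collagen, was at 2.02, 2.39, 2.78 and 2.79 in serum and -4.07, -4.75 and -3.45 in 2i, at least 60.2-fold lower in 2i (adjusted p = 1.0e-08). In feeder-free 3B3l-serum the level of Col1a1 was 1.87, not called different from J1-serum (-0.63, adjusted p = 0.22). In TKO-serum it was -1.03, a difference of -3.53 (adjusted p = 1.7e-05). In 2i it changed by -4.03 in 3B3l, where 1 of 2 arrays was above background, and by -0.58 in TKO. Ccl2, a chemokine of stromal cells, was at 2.19, 2.50, 2.65 and 2.23 in serum and -4.19, -4.17 and -4.62 in 2i, at least 56.0-fold lower. The small proteoglycan Dcn and the surface protein Thy1 changed by -4.29 and -4.20, with 1 and 2 of the 3 2i arrays above background, and the gelatinase Mmp2 was at least 42.6-fold lower. The feeders' part in these values was not tested.

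Over the wider list of collagen and fibroblast matrix genes, which holds most of those markers, 19 of 23 were lower and none higher (median -2.38, or -2.32 with 7 genes at their bound). The inhibitor Timp3 was at least 24.1-fold lower, the proteoglycan Bgn, above background on 1 of 3 2i arrays, changed by -2.47 and Fstl1 by -1.13. Fn1, the fibronectin gene, and Timp1 went against the list, at 4.75 to 5.11 and 3.64 to 3.92 in serum and 5.49 to 5.80 and 3.74 to 3.95 in 2i, and were not called.

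Contractile genes and targets of SRF, the factor that links actin dynamics to transcription, were lower in 17 of 29 cases and higher in none (median -1.76, or -1.62 with 8 genes at their bound). Acta2, smooth muscle actin, was at 3.74, 3.26, 3.85 and 3.55 in serum and -3.07, -2.64 and -3.17 in 2i and fell by 94.2-fold (log2 change -6.56, SE 0.19, adjusted p = 6.5e-11). As 2 of its 3 2i arrays were above background, that fold rests in part on a background signal. Ankrd1, a target of mechanical signals, was at 1.77, 1.80, 1.91 and 1.79 in serum and -4.67, -4.80 and -5.12 in 2i, at least 37.6-fold lower. Acta1, skeletal muscle actin, was at least 19.6-fold lower, the myosin light chain Myl9 at least 16.8-fold, and calponin Cnn1 at least 17.6-fold. Cnn2, the calponin of non-muscle cells, was at 3.34, 3.03, 3.02 and 3.21 in serum and -0.14, -0.06 and -0.01 in 2i and fell by 9.31-fold (log2 change -3.22, SE 0.10, adjusted p = 9.5e-11). The YAP targets Ccn1 and Ccn2, secreted matrix proteins, fell by 18.6-fold and 13.1-fold, and zyxin, Zyx, by 7.25-fold. The general cytoskeletal members Actb (0.21), Myh9 (-0.46), Vcl (-0.12) and Srf itself (-0.50) were not called. Fibroblasts and endoderm-like cells also express contractile genes, and their marker sums moved with this list in J1 as given above. In feeder-free 3B3l-serum both sums were below those of J1-serum, but 8 contractile genes were called higher and 1 lower than in J1-serum. In TKO-serum 2 were higher and 11 lower. In 2i 17 were called lower in 3B3l (median -2.35), and 13 lower and 1 higher in TKO (median -0.79). The part of fibroblasts and endoderm-like cells in these values was not tested.

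The CArG box, the SRF site searched as CC, 6 letters of A or T, and GG on both strands, was present in the windows of 9 of the 24 listed genes with one (37.5%), against 1.61% of tested genes and 1.73% of all. It was in 5 of the 13 genes called lower with a window and in 4 of the 11 not called. The windows of Acta1, Myl9 and Cnn2, which fell, and of Vcl, which did not change by 2-fold, are shown with the box in capitals. They lie at chr8:123894746-123895025 on the minus strand, chr2:156775214-156775493 on the plus strand, chr10:79988350-79988629 on the plus strand and chr14:20929148-20929427 on the plus strand of GRCm38.p6, in that order.
Acta1: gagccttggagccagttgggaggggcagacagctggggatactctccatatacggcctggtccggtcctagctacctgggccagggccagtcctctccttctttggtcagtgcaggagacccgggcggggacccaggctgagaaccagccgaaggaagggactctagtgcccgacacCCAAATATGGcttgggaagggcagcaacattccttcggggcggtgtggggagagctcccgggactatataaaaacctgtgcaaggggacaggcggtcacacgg
Myl9: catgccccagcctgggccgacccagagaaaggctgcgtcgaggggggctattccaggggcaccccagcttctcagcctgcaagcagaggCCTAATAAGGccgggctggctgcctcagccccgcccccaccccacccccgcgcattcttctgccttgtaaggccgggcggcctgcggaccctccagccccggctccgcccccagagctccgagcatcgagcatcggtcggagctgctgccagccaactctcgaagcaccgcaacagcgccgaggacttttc
Cnn2: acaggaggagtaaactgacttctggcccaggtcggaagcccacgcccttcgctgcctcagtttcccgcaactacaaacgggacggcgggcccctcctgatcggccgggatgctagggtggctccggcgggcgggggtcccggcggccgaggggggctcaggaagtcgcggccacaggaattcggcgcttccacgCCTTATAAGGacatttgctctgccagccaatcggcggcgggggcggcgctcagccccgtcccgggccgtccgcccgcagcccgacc
Vcl: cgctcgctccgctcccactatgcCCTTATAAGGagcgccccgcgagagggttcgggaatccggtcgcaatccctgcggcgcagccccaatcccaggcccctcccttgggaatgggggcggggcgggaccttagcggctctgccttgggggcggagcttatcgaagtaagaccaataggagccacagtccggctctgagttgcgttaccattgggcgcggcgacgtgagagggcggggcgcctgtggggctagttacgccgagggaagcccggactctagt
Most of these genes are known SRF targets, which is why they were listed.

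Calcium-binding S100 and annexin genes, tested as a family of the membrane and cortex, were lower in 8 of 21 cases and higher in 1. Anxa3 was at 1.66, 1.61, 1.75 and 1.61 in serum and -4.57, -4.80 and -4.70 in 2i, at least 33.7-fold lower (adjusted p = 7.2e-11), and Anxa2 fell by 4.47-fold. Lgals1, a galectin, was at 4.82, 4.71, 4.92 and 4.87 in serum and 2.67, 2.54 and 2.40 in 2i (log2 change -2.29, SE 0.11, adjusted p = 4.6e-09), and S100a1 rose by 1.18. Vim, vimentin, changed by -0.42 and was not called. Of 22 genes of simple epithelium and junctions 9 were lower and 2 higher, the latter a share of 9.09%, near the 10.1% of all genes. Epcam, the adhesion molecule of stem cells and epithelia, was at 4.08, 4.04, 4.07 and 4.25 in serum and 1.86, 1.85 and 1.77 in 2i and fell by 4.87-fold (log2 change -2.28, SE 0.09, adjusted p = 8.8e-10). The keratins Krt19 and Krt18 fell by 12.9-fold and 6.85-fold and cingulin, Cgn, by 9.79-fold, whereas the cadherin Cdh1 (0.57) and Krt8 (-0.71) were not called. The fibroblast and endoderm marker sums fell alongside both lists. Of the 21 S100 and annexin genes 10 were called lower and none higher in TKO-serum than in J1-serum. In 3B3l-serum 2 were lower and 3 higher. Of the 22 epithelium genes 7 were lower and 1 higher in TKO-serum, and 2 lower and 7 higher in 3B3l-serum. In 2i, 3 S100 and annexin genes fell and 5 rose in TKO, and 8 fell and none rose in 3B3l. For the epithelium genes it was 8 and 1 in TKO and 11 and none in 3B3l. The part of fibroblasts and endoderm-like cells in these values was not tested.

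Lineage genes other than those of endoderm gave smaller and mixed counts. Of 15 trophoblast genes 8 were lower and 3 higher, among the latter Tfap2c (1.38) and Tead4 (1.28), factors that stem cells also express. Eomes, a T-box gene of mesendoderm and trophoblast, was at -1.85, -1.41, -1.68 and -1.70 in serum and 0.42, 0.52 and 0.75 in 2i and rose (log2 change 2.22, SE 0.18, adjusted p = 4.9e-07). Gsc, the organizer homeobox gene, was at least 5.36-fold higher. In all 3 of 11 mesendoderm genes were higher and 1, Foxa2, lower, the latter a share of 9.09% against 12.7% of all genes. Of 17 neural genes 6 were lower, among them Fgf15, a ligand of the neural tube that was above background in serum only, and the growth cone gene Gap43 (-3.40), and 1 was higher, the adhesion molecule Ncam1 (2.53, with -0.85 on a second and dim probe). Of 16 Hox genes 9 were called higher and 2 lower, the latter a share of 12.5%, near the 12.7% of all genes. Hoxc4 was at -2.42, -2.37, -2.49 and -2.40 in serum and 1.29, 1.15 and 1.24 in 2i (log2 change 3.65, SE 0.13, adjusted p = 3.4e-10), with 2 of 4 serum arrays above background, and Hoxc13 rose by 2.14, but Hoxb2 was at least 4.04-fold lower. The median of the Hox list turned its sign with the filter for dim probes.

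The list of interferon response genes was split, with 5 of 22 higher and 8 lower. Ly6a, a surface antigen, was at 0.14, 0.39, 0.38 and 0.00 in serum and 3.06, 3.04 and 2.95 in 2i and rose by 6.90-fold (log2 change 2.79, SE 0.15, adjusted p = 1.2e-08). The interferon-induced Xaf1, Oas1a and Ddx58, a sensor of viral RNA, rose by 2.68, 2.30 and 1.99, whereas Isg15 and Gbp2, interferon-induced too, were lower, Isg15 with a change of -1.37 and Gbp2 by at least 14.7-fold. The other members called lower included B2m, the light chain of class I molecules, which fell from the range 4.65 to 4.79 in serum to 3.14 to 3.24 in 2i (log2 change -1.51, SE 0.12, adjusted p = 3.0e-07), the heavy chain genes H2-K1 and H2-D1, which fell by 3.72-fold and 2.67-fold, and the peptide transporter Tap1 and the proteasome subunit Psmb8, at least 3.88- and 6.03-fold lower. The fibroblast marker sum given above fell alongside, and its part in these values was not tested. Among 16 housekeeping controls B2m was the only one called, and the others ranged from -0.39 (Tfrc) to 0.56 (Sdha).

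Of 29 imprinted genes 5 were higher and 10 lower. Besides Plagl1, the deiodinase Dio3, above background on 1 of 4 serum arrays, rose by 2.32 and the noncoding Mirg by 2.30-fold, while Cdkn1c, a cyclin kinase inhibitor, was at 2.32, 2.46, 2.52 and 2.68 in serum and -2.07, -1.85 and -1.94 in 2i and fell by 21.8-fold (log2 change -4.45, SE 0.12, adjusted p = 3.1e-11), with 2 of 3 2i arrays above background. Nnat was at least 8.72-fold lower, Dlk1, a Notch ligand above background on 1 of 3 2i arrays, changed by -4.38, and the growth factor Igf2 was above background on 1 serum array and on no 2i array. Of 32 Polycomb subunits 3 were higher, among them Bmi1 (2.21) and Bcor (1.04, with a second probe called lower at -1.21), and 3 lower, Pcgf5 (-1.86), Phc1 (-1.27) and Yaf2 (-1.21). At 9.38% each way these counts were no higher than the 10.1% and 12.7% of all genes. The catalytic subunit Ezh2 changed by 0.24. Of 23 genes of the G1 phase 3 were higher (a share near the 10.1% of all genes) and 6 lower. Cdkn2a, a locus of cell cycle inhibitors, rose by 1.59, the pocket protein gene Rbl1 by 1.42 and Cdk2 by 1.04, while Rb1 fell by 3.65-fold.

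**Figure D4:**
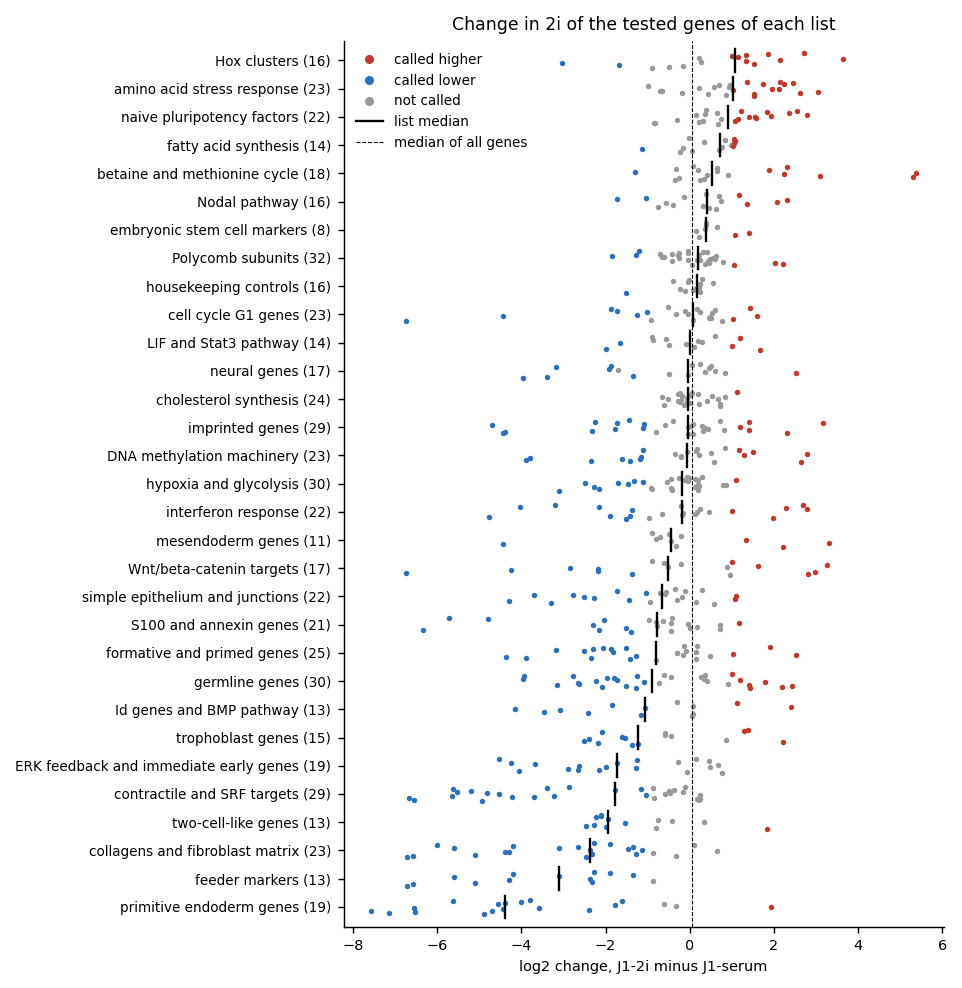
Change in 2i of every tested gene of the 31 lists (log2, J1-2i minus J1-serum), with the number of genes tested in brackets, red for genes called higher, blue for lower and grey for not called. Black bars are list medians, from -4.39 for primitive endoderm genes upward, and the dashed line is the median of all genes, 0.05.

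Genes above background in 1 medium only were ranked by the lower bound of their fold. Mal, a membrane protein of lipid rafts, was at -4.67, -4.76, -4.65 and -4.45 in serum and 1.57, 1.46 and 1.72 in 2i, at least 30.9-fold higher in 2i (adjusted p = 5.8e-12). It was followed by the teneurin Tenm4 (at least 21.3-fold), the sialyltransferase St8sia6 (20.3), the channel Pkd2l1 (20.3), the small GTPase Rab38 (17.0), the kinase Dclk3 (16.9), the serum amyloid Saa3 (16.1) and the ion pump regulator Fxyd4 (15.1). In the other direction Col4a1, Col4a2, Cubn, Col1a1, Ccl2, Ccnd2 and Gata6 have been given above, and Plac8, a small cysteine-rich protein, was at 2.97, 2.86, 2.97 and 3.09 in serum and -2.45, -2.57 and -2.88 in 2i, at least 48.8-fold lower.

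The J1 response was then set against the 2i response of the feeder-free TKO and 3B3l cells by testing the difference of the responses in the same fit. Of the genes tested, 6.75% were called higher and 9.09% lower in TKO, and 5.64% and 7.96% in 3B3l. The response of J1 differed from that of TKO for 15.3% of genes and from that of 3B3l for 17.3%. For 1163 genes it differed from both with the same sign, and 877 of those were called in J1, 384 with the more positive and 493 with the more negative change in J1. These counts include genes at background in a group.

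J1 alone left feeders behind on entering 2i, so genotype and feeders cannot be told apart as sources of these differences. Of the 19 primitive endoderm genes, 16 were above background on a TKO-serum array and 11 of these were called lower in TKO, while 12 were above background on a 3B3l-serum array and 5 of these were called lower in 3B3l. A gene above background throughout J1-serum passed the filter whatever its signal elsewhere, so these counts are not set against the 16 called lower in J1. Pdgfra and Foxa2 were above background on every J1-serum array and on no array of J1-2i, TKO or 3B3l, so no size of a difference is given for them. Gata4 was at least 12.1-fold lower in J1 and changed by -0.47 in TKO, where 2 of the 3 2i arrays were above background, and the responses differed (adjusted p = 2.9e-04). Gata6 was called lower in all 3 lines and was above background on no 2i array of J1 or 3B3l. The 6 genes that the rule took for a more negative response in J1 were Cxcl1, a chemokine, Hkdc1, a hexokinase, Vcam1, an adhesion molecule, Cck, cholecystokinin, Ugt2b34, a glucuronosyltransferase, and Nostrin, an adaptor for nitric oxide synthase. All 6 were above background on every J1-serum array and on no J1-2i array. In TKO and 3B3l none of them was above background on any array but Cck, on 1 TKO-serum array, so the rank among them depends on background and no size of a response could be measured there. Vcam1 was at -0.30, -0.34, -0.16 and -0.47 in serum and -4.56, -5.02 and -5.15 in 2i, at least 8.56-fold lower in J1. Nostrin was at 2.18, -0.78, -0.71 and -0.84 in serum, high on replicate 1.

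Several pluripotency genes were called higher in J1 and in neither of the other lines. Nr0b1 was at 2.32, 2.52, 2.58 and 2.49 in serum and 4.11, 3.99 and 4.01 in 2i in J1 and rose by 1.56, against -0.12 in TKO and -0.15 in 3B3l (difference 1.68 and 1.71, adjusted p = 5.9e-06 and 6.7e-06). Its serum level was higher in TKO and 3B3l than in J1, by 1.82 and 2.01. Klf5 changed by 0.05 and -0.09 in those lines and differed from J1 (adjusted p = 0.003 and 0.0023, the first by 0.998 without TKO-serum replicate 1, just under 2-fold), whereas Tfcp2l1 rose in all 3, by 2.56, 2.78 and 2.24, with no called difference (adjusted p = 0.51 and 0.33). Lefty2 and Gdf3 rose in J1 and changed by -0.84 and -0.19 in TKO (adjusted p of the difference = 5.5e-08 and 1.1e-05). Zic2 and Foxd3, higher in 2i in J1, changed by -1.03 and -0.97 in TKO and by -0.64 and -1.06 in 3B3l. Otx2, level in J1, changed by -2.04 in TKO and -3.54 in 3B3l (adjusted p of the difference = 3.1e-06 and 4.5e-08).

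Several amino acid genes differed between the lines too. Chac1 rose by 3.06 in J1 and changed by -0.02 in TKO and -0.69 in 3B3l (adjusted p of the difference = 2.0e-06 and 5.2e-07). Its serum level was higher in TKO and 3B3l than in J1, by 1.63 and 2.11 (adjusted p = 1.1e-05 and 1.0e-06). Of the 23 amino acid genes 4 were called higher and 4 lower in TKO-serum than in J1-serum, and 11 higher and 3 lower in 3B3l-serum. Stc2 and Slc7a3 changed by -0.72 and -0.05 in TKO and by -0.79 and -0.65 in 3B3l, and differed from J1 in both lines (adjusted p at most 8.0e-06). Nupr1 rose in all 3 lines, by 2.11, 2.46 and 1.98. The 6 genes that the rule took for a more positive response in J1 were Tenm4, D630039A03Rik, Hhip, a hedgehog-binding protein, Cyp7b1, an oxysterol hydroxylase, Mup6, a urinary protein, and Scn3a, a sodium channel. None of them was above background on a J1-serum array, so no size of a difference is given. Tenm4, above background on every TKO and 3B3l array, changed by 0.05 in TKO and -0.38 in 3B3l, and its rise of at least 21.3-fold in J1 differed from both (adjusted p = 9.9e-08 and 4.1e-08). A second probe of Tenm4 was above background in both media and changed by 1.08 in J1 (adjusted p = 0.097).

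Some germline and 2-cell genes also responded differently in J1 and a knockout line. Stra8 changed by -1.73 in J1 and -1.70 in TKO but by 4.11 in 3B3l (adjusted p of the difference from 3B3l = 2.9e-08). Zscan4f changed by -2.11 in J1 and 2.40 in 3B3l, was above background on both TKO-serum arrays and no TKO-2i array, and responded differently from J1 in TKO and in 3B3l (adjusted p = 2.1e-08 and 3.7e-08). Etv4, lower in J1, changed by 0.50 in TKO and 0.53 in 3B3l (adjusted p of the difference = 2.1e-05 and 2.6e-05), while Dusp6 fell in every line. Dnmt3b changed by -0.30 in TKO and 0.29 in 3B3l, which lack the native gene.

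**Figure D5:**
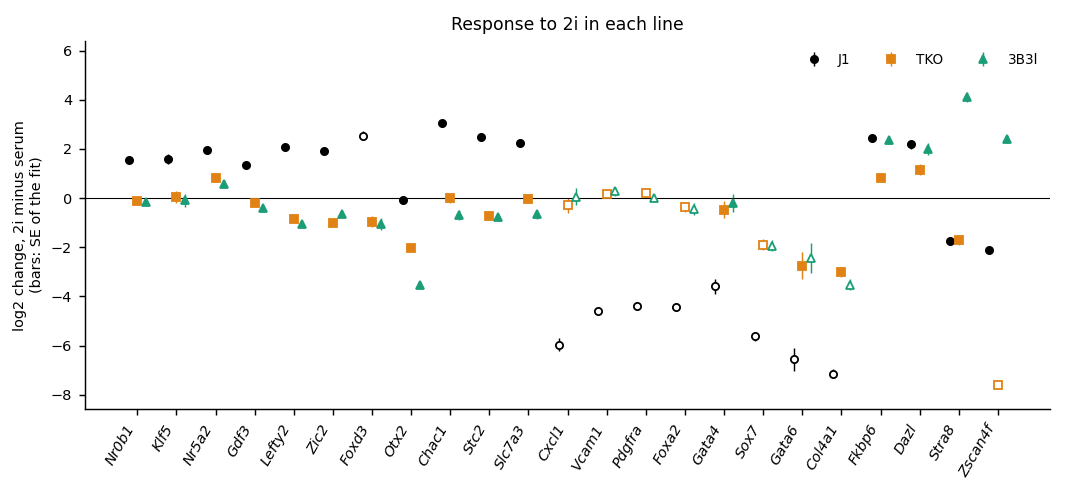
Change in 2i (log2, 2i minus serum) of 23 genes in J1 (black circles), TKO (orange squares) and 3B3l cells (green triangles), with bars for the SE of the fit. Open symbols have a medium with no array above background, so that their size is set by the background. Nr0b1, Lefty2, Chac1, Stc2 and Slc7a3 lie well above 0 in J1 and at or below 0 in the other lines, Cxcl1, Vcam1, Pdgfra and Foxa2 are off background in J1-serum only, and Dazl is above 1 in all 3 lines.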

How the data were processed

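RNA of mouse embryonic stem cells was hybridised to 16 1-colour (Cy3) Agilent 8x60K arrays. Per the file headers, the authors read them with Agilent Feature Extraction (11.5.1.1), and the deposited intensity is a processed signal after background subtraction and detrending, without normalization between arrays. The median spot and local background intensities were deposited beside it, as were flags of 0 or 1. The authors' deposited log2 table, of 30170 probes, served as an alternative only. Its 16 columns matched the scanner arrays by group but only 3 matched by replicate number.

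Each probe's value was log2 of the processed signal minus the array's 75th percentile. Spots with an outlier flag were removed but saturated ones retained, and replicate spots were averaged. Testing required a signal well above background, in at least 50% of a probe's spots, throughout at least 1 group. This gave 27082 of 55681 probes, 9248 of them unnamed and 844 without a value on at least 1 array. Symbols came from RefSeq accessions (GRCm38.p6), and 28026 probes had 1 symbol. A gene was represented by its unsaturated probe of highest mean. Of 606 called genes with several tested probes, 66 had a probe of opposite sign, and 10 genes had calls in both directions.

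All 16 arrays entered 1 limma fit (version 3.58.1, R 4.3.3) of 6 group means with 10 residual degrees of freedom, eBayes moderation and two-sided tests adjusted by Benjamini-Hochberg over all probes. The scripts were tested on simulated data. Precision is limited by the number of arrays, of which 39.7% to 49.0% of spots were well above background. No deposited column of sample values was unmapped (0).

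The members, gene lists and motifs were chosen with earlier results of these data known. By rule, the text names members of the 31 lists, the 15 genes of largest change in each direction measured on all 7 arrays, the 8 of largest bounded fold and the 6 whose response in J1 differed most from both other lines. The genes in the lists include those of other cell types that the cultures could hold. Alternatives covered scaling, background, filter, slide, replicate block, left-out arrays, fold limit and test. The normexp alternative used median spot signals, since mean signals were not used here. Without a stated culture of origin, replicates are arrays. Some genes counted in the lists are not reported here by name.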

Additional observations from a re-analysis of the deposited data

Results flagged for a closer look

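For 21 of 283 genes named above, 1 of the 4 J1-serum arrays lay apart from the other 3, with a gap to its neighbour above Dixon's critical value, as a share of the group's range. Chance gives such a gap in about 1 of 20 groups, and 7.4% of the genes showed it. In 18 of the 21 the array was replicate 1, the one on the third slide. As shares of the range, its gaps were for Cldn6 (0.952), Dazl (0.902), Ddx4 (0.906), Dmgdh (0.939), Dusp5 (0.9), Gadd45a (0.895), Gm13580 (0.96), H2-K1 (0.868), Ildr1 (0.856), Krt18 (0.93), Lamc1 (0.861), Nostrin (0.957), Pcsk6 (0.838), Phlda1 (0.872), Piwil2 (0.839), Sox3 (0.848), Spred2 (0.891) and Zyx (0.919). The other arrays were replicate 3 for Acta1 (0.884), replicate 2 for Ugt2b34 (0.921) and replicate 3 for Zscan4b (0.944).

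The 2i response of J1 differed from that of TKO and of 3B3l, by the interaction test of limma with the call rule of the report, for the following genes. Values are differences of log2 changes, against TKO and then 3B3l. Genes with a group at background on all its arrays are left out. Among pluripotency, Nodal and epiblast genes they were Nr0b1 (1.68 and 1.71), Klf5 (1.53 and 1.68), Lefty2 (2.92 and 3.14), Gdf3 (1.55 and 1.75), Zic2 (2.95 and 2.56) and Otx2 (1.96 and 3.45), all more positive in J1. Among amino acid genes they were Chac1 (3.08 and 3.75), Stc2 (3.19 and 3.25) and Slc7a3 (2.29 and 2.90). Etv4 differed by -1.78 and -1.80, and Dnmt3b, which the other lines lack in native form, by -2.04 and -2.63. Zscan4f and Stra8 differed from 3B3l (-4.51 and -5.85). The feeders that J1 alone had in serum were not separated from these values. With slide as a block, 1174 genes in place of 1163 differed from both lines.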

How the results depend on the processing

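The counts of genes called in the J1 response (1407 higher and 1759 lower) and in the leading gene lists stayed within 1.5-fold of these values under the other scalings, normexp, the deposited table, slide as a block, slide 1 alone, the 7 J1 arrays alone, the unmoderated test and each left-out J1 array (1357 to 1462 higher, 1713 to 1768 lower). So did the counts that involve the other lines, which the settings with J1 arrays alone could not give. With the TKO and 3B3l arrays also left out in turn, a choice made after seeing the data, the highest count lower was 1772, and 1069 to 1242 genes, in place of 1163, differed from both lines. The exceptions were the filter and the fold limit. Requiring signal above background on all 16 arrays left 859 higher and 610 lower, 5 ERK, 8 contractile, 4 primitive endoderm and 1 feeder gene lower, 510 genes differing from both lines, and 596 and 558 genes lower in TKO-serum and 3B3l-serum, since that filter drops genes silent in any group. It also turned the medians of the trophoblast (1.28) and Hox lists (-0.69), and the Hox median was -0.15 without a filter and -0.0089 in the deposited table. Without a fold limit the counts were 4209 and 3487, with 2471, 3220 and 3041 for the other comparisons, and at 1.5-fold 2789 higher (2577 lower), 2173, 2334 and 2328. Slides 2 and 1 differed in 3 probes (0 with the J1 filter, 8 unfiltered), slides 3 and 1 in 571 (319 with all 16 arrays above background, 1004 unfiltered).

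Scaling to array medians moved the median change of all genes from 0.05 to 0.18 and the calls to 1770 higher and 1545 lower, and normexp gave 1200 and 1384. Of all calls 44.4% were higher, 53.4% with median scaling and 58.5% with the all-array filter. With the replicate block the counts were 1361 and 1680, and deviations of same-numbered arrays correlated at -0.12, 0.01 and -0.06. These deviations are from means of few arrays, so the correlations cannot decide whether the numbers pair the arrays. Without slide 3 (chosen after seeing the data) the counts were 1354 and 1699. No named gene reversed. Of the named genes, 14 near 2-fold lost their call without 1 array, at sizes of 0.80 to 1.00 (log2), namely Bcor, Cdk2, Fads1, Fasn, Fst, Fstl1, Id3, Il6st, Mthfd2, Pfkp, Skil, Srebf1, Tcf7l1 and Tuba3a, and Socs3 gained one (-1.01) without J1-2i replicate 3. The cause was not tested. Signals near background limit the dim genes, for which folds are bounds.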
